A study of Arabidopsis thaliana with 9 samples.

Results

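GH3 proteins are acyl acid amido synthetases, enzymes that join an amino acid to a plant hormone or to one of its relatives. The 10 members described here were taken by locus from a fixed list: GH3.1, GH3.2, GH3.3, GH3.4, GH3.5, GH3.6, GH3.9 and GH3.17, which act on auxin, JAR1, which acts on jasmonate, and PBS3, which acts in salicylic acid synthesis. A measured row was matched for 9 of the 10 among the 25199 loci measured, and GH3.4 (AT1G59500) was not analysed here. Of these 9, 8 passed the filter on low values (at least 1 FPKM in at least 3 libraries) and were tested. PBS3 did not pass it and is given by its values.

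Transcripts were sequenced from whole Arabidopsis thaliana seedlings, grown untreated on plates for 7 days in 16 h of light and 8 h of dark at 22 degrees. All 9 libraries come from the Enkheim-2 (En2) background, with 3 biological replicates each of En2 wild type, of a line that over-expresses RAV1, and of bes1-D. RAV1 is a DNA-binding protein with an AP2 and a B3 domain, and bes1-D is a gain-of-function mutant of BES1, a transcription factor of the brassinosteroid pathway. The sources used here do not give the promoter that drives RAV1, how many lines were used or how many seedlings went into a library.

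The levels are in FPKM, fragments scaled by transcript length and by the mapped fragments of a library, so they can be compared between genes. Differences are given as changes in log2(FPKM + 1), which understate the change of low genes. The threshold for a call was 0.05 for the limma p after Benjamini-Hochberg adjustment over all 19740 loci tested. The absolute depth is unknown; the relative depth, estimated from 52 to 76 low loci per library, lay between 82.9% and 112.5% of En2 wild type replicate 1. RAV1 stood at 71.4, 99.0 and 81.9 FPKM in wild type, at 1064, 756 and 1426 FPKM in the over-expression line, and at 53.9, 58.3 and 33.2 FPKM in bes1-D. BES1 averaged 108 ± 13.1 FPKM in wild type, 62.2 ± 10.6 FPKM in the over-expression line and 154 ± 25.2 FPKM in bes1-D (SD, n = 3); bes1-D alters the protein, so this level does not check that label.

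Leaf and root markers were present in every library. The RAV1 over-expression line stood apart in markers of seed maturation: the summed level of 9 seed genes was 448, 136 and 1647 FPKM in its replicates 1 to 3, against 17.7 to 33.1 FPKM in wild type and 22.0 to 35.3 FPKM in bes1-D. Of the 7 seed genes tested, PAP85 and EM1 passed the filter only through the over-expression line, so their difference was built into their selection. The other 5 rose there, where 15.0% of all loci rose and 8.01% fell. Their log2 changes ran from 2.08 for OLEO2 to 5.65 for CRC. The calls over all 7 dropped to 2 without its replicate 1 and to 4 without wild-type replicate 2. The summed level of 5 photosynthesis genes was 17613 to 25135 FPKM there and 35113 to 37223 FPKM in wild type, and 5 of 5 fell, or 1 of 5 under quantile normalization. In bes1-D that sum was 38880 to 43326 FPKM, above every wild-type library, and none of the 5 was called. The summed level of 9 root genes was 51.3 to 79.4 FPKM in bes1-D, 109 to 123 FPKM in wild type and 128 to 146 FPKM in the over-expression line, with PRP3 the highest by group mean. Of these root genes 4 fell and none rose in bes1-D, beside 5.77% and 2.19% of all loci. The falls were PHT1;1 (log2 change -1.87), EXPA7 (-1.35), PRP3 (-1.14) and COBL9 (-1.04). Not called there were NRT2.1 (-1.11), WOX5 (-0.28), PLT1 (-0.26), SHR (-0.17) and SCR (-0.05). Of the root genes 5 had an unadjusted p under 0.05 in limma there, as did 23.5% of all loci. Falls were 2 without wild-type replicate 1 or 2, over-expression replicate 1 or bes1-D replicate 2 or 3. In the over-expression line 3 rose and 2 fell, beside 15.0% and 8.01% of all loci. PHT1;1, a phosphate transporter, fell by 2.52 on the log2 scale (adjusted p = 0.0036) and NRT2.1, a nitrate transporter, fell by 1.93 (adjusted p = 0.0152), while EXPA7, SCR and SHR rose; rises were 1 under either scaling and without wild-type replicate 2 or 3 or over-expression replicate 1 or 3, and falls were 1 without wild-type replicate 1 or over-expression replicate 3. The summed level of 8 wound and touch genes overlapped between the 3 groups, at 372 to 656 FPKM in wild type, 356 to 603 FPKM in the over-expression line and 510 to 763 FPKM in bes1-D, and TCH2, TCH3 and TCH4 made up most of it. JAZ10, a jasmonate-induced repressor, rose in the over-expression line (0.96, adjusted p = 0.0275). That call was lost without wild-type replicate 1 or 2 or over-expression replicate 1 or 2. It was the only 1 of the 8 called there, and the list median was -0.21. ZAT10 (-1.14), ERF5 (-0.68), ERF6 (-0.66) and TCH4 (-0.53) were lower, and TCH3 (0.30), TCH2 (0.13) and WRKY40 (0.11) higher. In bes1-D none of the 8 was called, but 5 had an unadjusted p under 0.05 in limma, as did 23.5% of all loci. The list went both ways there, with a median of -0.76. WRKY40 (-1.64), JAZ10 (-0.95), ERF5 (-0.94), ZAT10 (-0.77) and ERF6 (-0.75) were lower. TCH4 (0.70), TCH3 (0.52) and TCH2 (0.18) were higher, and TCH4 was among those with an unadjusted p under 0.05. Marker genes named here beyond the highest of a list were chosen after their values were seen. The part of these differences in the results was not tested. In whole seedlings, fewer cells of a type and less RNA per cell cannot be told apart.

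GH3 enzymes activate the carboxyl group of a hormone and then attach an amino acid to it. The auxin enzymes attach amino acids to indole-3-acetic acid (IAA) and so lower the pool of free auxin, and several of their genes are classic early auxin-response genes, induced by the hormone they remove. JAR1 works in the opposite sense, since jasmonoyl-isoleucine, its product, is the form of jasmonate that the COI1 receptor binds. PBS3 attaches glutamate to isochorismate, and the product breaks down to salicylic acid.

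In wild-type seedlings the 9 members covered a wide range of levels. JAR1 was highest at 32.0 ± 1.60 FPKM (SD, n = 3), followed by GH3.6 at 28.4 ± 0.901 FPKM, GH3.17 at 20.4 ± 1.47 FPKM and GH3.5 at 12.0 ± 0.638 FPKM, and the libraries of these 4 genes did not overlap between neighbours in that order. GH3.3, GH3.2, GH3.9 and GH3.1 followed with means between 3.12 and 4.66 FPKM, and each overlapped with the next in the order. PBS3 was lowest, at 0.22 to 0.30 FPKM. In the RAV1 over-expression line the top of the order held JAR1, GH3.3, GH3.6 and GH3.5, each overlapping with the next, and GH3.17 came after them. In bes1-D the order of the means was that of wild type.

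**Figure D1:**
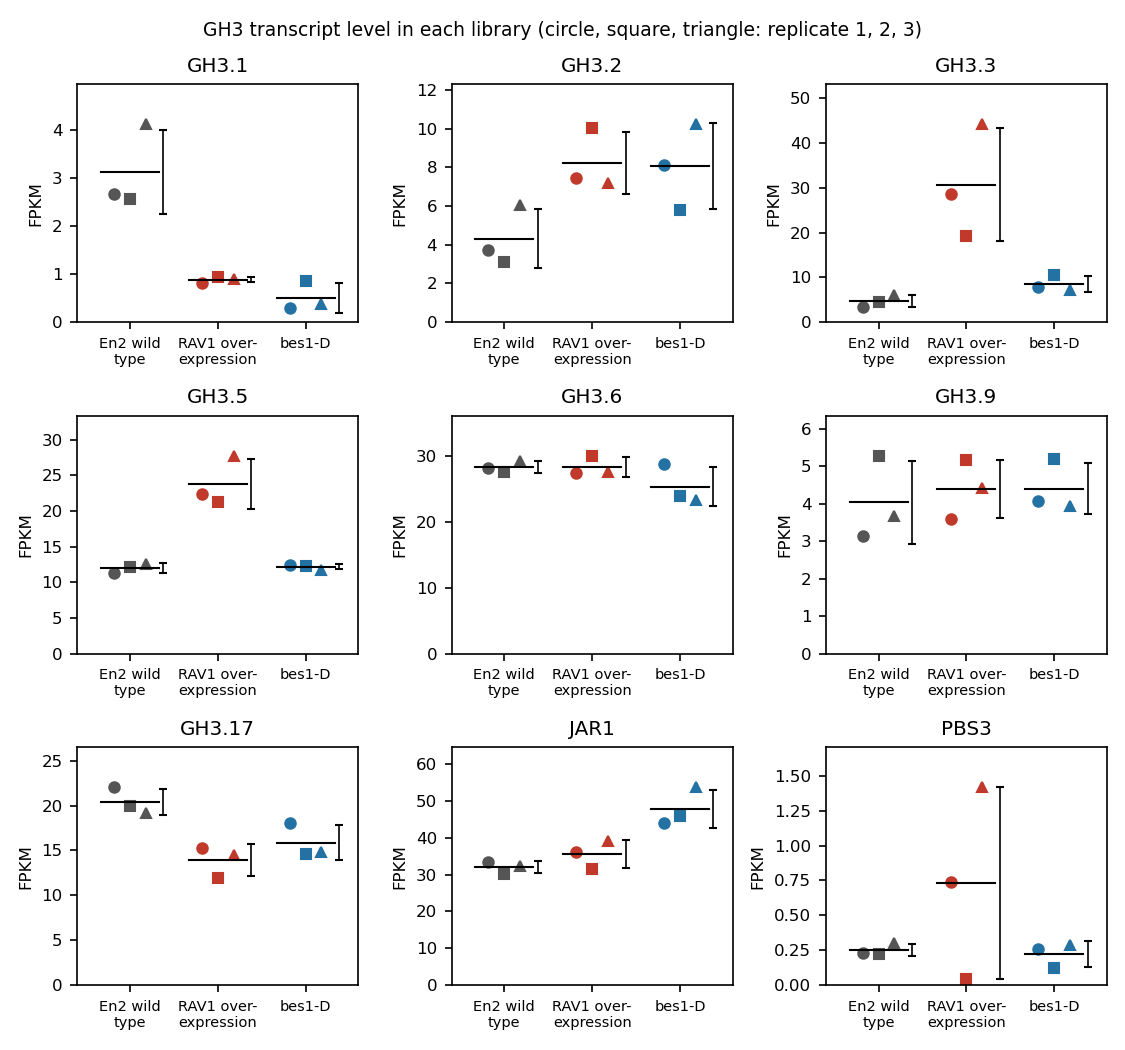
Level of each of the 9 members in each library, in FPKM, with 1 panel per gene and its own axis starting at 0; points are libraries, the horizontal line is the mean, and the bar beside it spans 1 SD to each side over 3 replicates. GH3.3 reaches 19.3 to 44.3 FPKM in the RAV1 over-expression line against 3.46 to 6.06 FPKM in wild type, and GH3.1 is highest in the 3 wild-type libraries.

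GH3.3 showed the largest change among the 8 tested members in the RAV1 over-expression line. GH3.3 (AT2G23170) conjugates IAA to amino acids and is one of the auxin-inducible members. It stood at 3.46, 4.46 and 6.06 FPKM in wild type, at 28.7, 19.3 and 44.3 FPKM in the RAV1 over-expression line, and at 7.72, 10.5 and 7.13 FPKM in bes1-D. Every over-expression library was above every library of both other groups, and the bes1-D libraries were above the wild-type ones. Against wild type the level in the over-expression line was 6.59-fold higher, a log2 change of 2.44 (SE 0.28, adjusted p = 0.000658). Leaving out any single library left the change between 2.14 and 2.72. Against bes1-D it was 3.63-fold higher, a log2 change of 1.69 (SE 0.28, adjusted p = 0.00172). Between bes1-D and wild type the difference of 0.75 did not pass the threshold (adjusted p = 0.134; unadjusted 95% interval 0.13 to 1.37).

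Within the over-expression line, GH3.3 was lowest in replicate 2 and highest in replicate 3. RAV1 itself and the seed markers had the same order over these 3 libraries. So did GH3.5, and JAR1, which was not called in this line against wild type. GH3.2, called higher, had the reverse order. Whether these levels are tied was not tested. With replicate 3 left out, which holds most of the seed marker signal, the GH3.3 change was 2.14. Replicates 1 and 2 still had seed marker sums of 448 and 136 FPKM, against 17.7 to 33.1 FPKM in wild type. Leaving out replicate 3 therefore does not take the seed signal away.

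**Figure D2:**
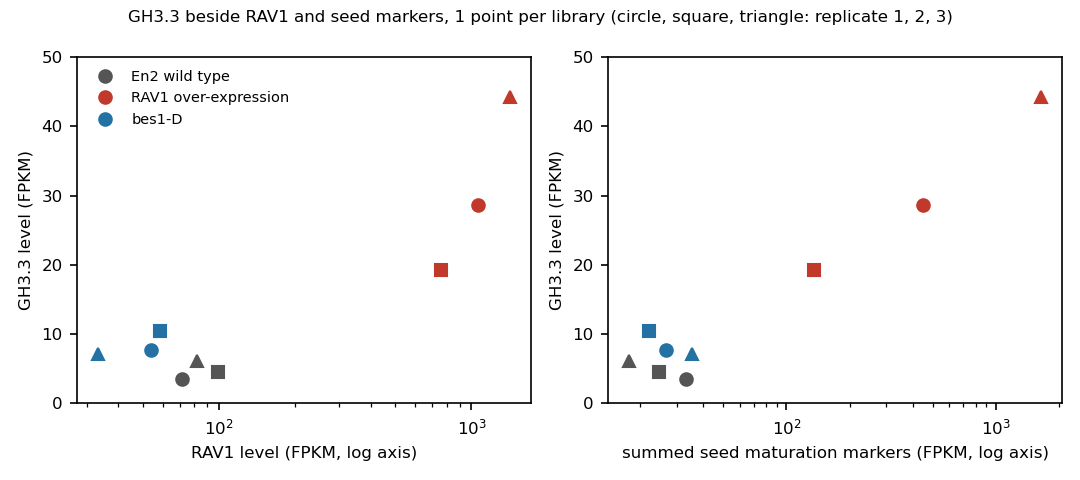
GH3.3 level in FPKM in each of the 9 libraries against the RAV1 level (left) and against the summed level of the 9 seed maturation genes (right); the vertical axes are linear and the horizontal axes are log scales of FPKM. Each point is 1 library, coloured by genotype. The 3 RAV1 over-expression libraries lie apart from the other 6 and have the same order on all 3 measures.

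GH3.5 (AT4G27260) conjugates IAA and, in vitro, also salicylic acid. Its levels were 11.3, 12.2 and 12.5 FPKM in wild type, 22.4, 21.2 and 27.8 FPKM in the RAV1 over-expression line, and 12.4, 12.3 and 11.8 FPKM in bes1-D. The over-expression libraries were above all others, and those of wild type and bes1-D overlapped. The gene rose 1.98-fold against wild type (log2 change 0.92, SE 0.11, adjusted p = 0.000655) and was 1.96-fold higher than in bes1-D (0.91, SE 0.11, adjusted p = 0.000302). In bes1-D the difference from wild type was 0.02 (adjusted p = 0.95; interval -0.23 to 0.26).

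GH3.2 (AT4G37390), another auxin-inducible IAA synthetase, had like levels in the 2 altered genotypes. It stood at 3.74, 3.13 and 6.03 FPKM in wild type, 7.44, 10.05 and 7.19 FPKM in the RAV1 over-expression line, and 8.14, 5.80 and 10.2 FPKM in bes1-D. The over-expression libraries were all above wild type, while in bes1-D replicate 2 lay below the highest wild-type library. The log2 change was 0.82 in the over-expression line (SE 0.23, adjusted p = 0.0295), a call that was lost without wild-type replicate 1 or 2 or over-expression replicate 1 or 2 (adjusted p up to 0.108) and under trimmed-mean scaling (adjusted p = 0.0512) or quantile normalization (0.0526). In bes1-D the change of 0.78 did not pass (adjusted p = 0.0691), and it passed without wild-type replicate 3 (adjusted p = 0.0382). The direct difference between the 2 genotypes was 0.04, with an interval from -0.48 to 0.56.

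GH3.1 (AT2G14960), an IAA synthetase as well, moved the other way. Its levels were 2.66, 2.57 and 4.12 FPKM in wild type, 0.82, 0.94 and 0.89 FPKM in the RAV1 over-expression line, and 0.29, 0.86 and 0.37 FPKM in bes1-D. Wild type was above both other groups with no overlap, and those 2 overlapped. The gene fell by 1.11 on the log2 scale in the over-expression line (SE 0.20, adjusted p = 0.0042), where wild type was 3.53-fold higher, and fell by 1.45 in bes1-D (SE 0.20, adjusted p = 0.00351), where wild type was 6.15-fold higher. Both comparisons rest on the same 3 wild-type libraries. GH3.1 passed the filter on low values only through wild type, so a difference was built into its selection, and its calls are given as a description. With 1 wild-type library left out in turn it can be tested only at a filter of 2 libraries. That alternative was chosen after seeing the data. The change then lay between -0.94 and -1.20 in the over-expression line and between -1.28 and -1.54 in bes1-D. GH3.1 remained called, but it again passed the filter only through wild type, so this is no separate check of its calls.

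GH3.17 (AT1G28130), which prefers glutamate as the amino acid it joins to IAA, also fell in the RAV1 over-expression line. It had 22.1, 20.0 and 19.2 FPKM in wild type, 15.3, 11.9 and 14.5 FPKM in the over-expression line, and 18.1, 14.6 and 14.9 FPKM in bes1-D. Wild type was above both other groups, which overlapped. The log2 change was -0.53 in the over-expression line (SE 0.12, adjusted p = 0.0121), and the call was kept with each library left out. In bes1-D the difference of -0.35 did not pass (adjusted p = 0.108; interval -0.62 to -0.08), and between the 2 genotypes it was -0.18 (adjusted p = 0.262).

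GH3.6 and GH3.9 did not pass the threshold in any comparison. GH3.6 (AT5G54510), an IAA synthetase found through an activation-tagged dwarf, had 28.2, 27.6 and 29.3 FPKM in wild type, 27.5, 30.1 and 27.6 FPKM in the over-expression line and 28.9, 24.0 and 23.3 FPKM in bes1-D. The 3 groups overlapped, and the intervals of its log2 differences from wild type ran from -0.22 to 0.22 and from -0.38 to 0.06. GH3.9 (AT2G47750), a member that acts in primary root growth, lay between 3.14 and 5.28 FPKM in all 9 libraries, with intervals from -0.30 to 0.52 and from -0.29 to 0.53.

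Added up, the 7 measured auxin GH3 genes reached 74.5, 75.2 and 81.0 FPKM in wild type, 106, 98.7 and 127 FPKM in the RAV1 over-expression line, and 79.6, 73.3 and 71.6 FPKM in bes1-D. The over-expression libraries were above the others, and wild type and bes1-D overlapped. The makeup of the sum differed as well. GH3.3 made up 6.02% ± 1.42 of it in wild type and 27.2% ± 7.71 in the over-expression line, while GH3.17 made up 26.7% ± 2.94 and 12.7% ± 1.60 (SD, n = 3). GH3.6 made up the largest share in wild type, 36.9% ± 0.805, and 26.1% ± 4.37 in the over-expression line. In bes1-D the shares of GH3.3 and GH3.17 were 11.3% ± 2.61 and 21.2% ± 1.46.

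**Figure D3:**
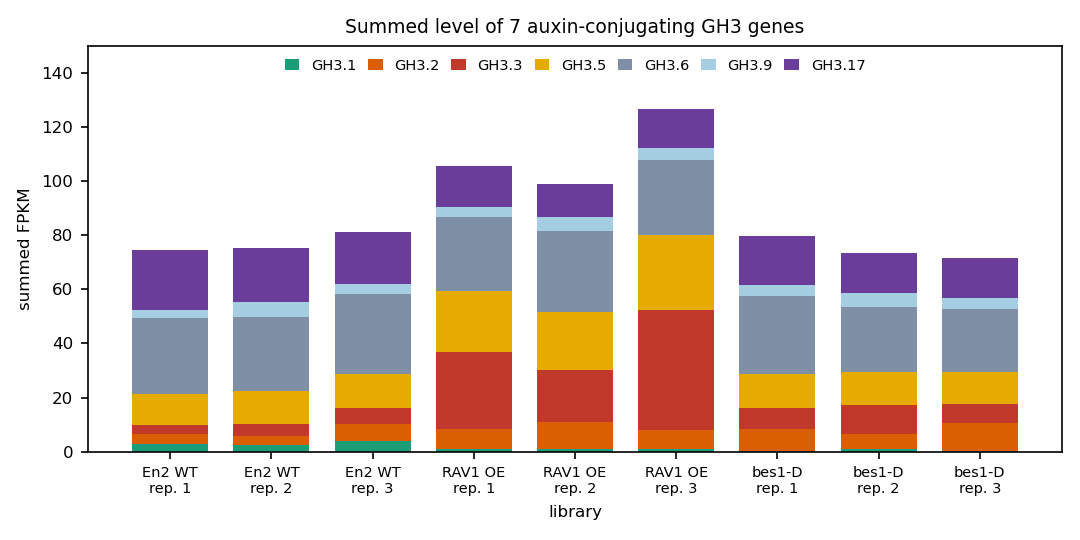
Summed level of the 7 measured auxin GH3 genes in each library, in FPKM, as bars from 0 split by gene. The 3 RAV1 over-expression bars reach 98.7 to 127 FPKM with a wide GH3.3 segment, and the 6 other bars lie between 71.6 and 81.0 FPKM.

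The jasmonate enzyme was called in the other mutant. JAR1 (AT2G46370) had 33.3, 30.2 and 32.5 FPKM in wild type, 36.2, 31.6 and 39.2 FPKM in the RAV1 over-expression line, and 44.2, 45.9 and 53.8 FPKM in bes1-D. All bes1-D libraries were above all others, and wild type and the over-expression line overlapped. JAR1 rose 1.50-fold in bes1-D (log2 change 0.56, SE 0.11, adjusted p = 0.0123), a call lost without wild-type replicate 2 (adjusted p = 0.0566). It was lower in the over-expression line than in bes1-D (log2 difference -0.42, SE 0.11, adjusted p = 0.0126). Between the over-expression line and wild type the difference was 0.15 (adjusted p = 0.338; interval -0.09 to 0.38).

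PBS3 (AT5G13320) was low in wild type, at 0.23, 0.22 and 0.30 FPKM, and in bes1-D, at 0.26, 0.12 and 0.29 FPKM. In the RAV1 over-expression line it had 0.74, 0.04 and 1.42 FPKM, so its replicates spread around both other groups. Only replicate 3 exceeded 1 FPKM, and the replicate order was that of RAV1 and the seed markers, as for GH3.3, GH3.5 and JAR1. With no filter the log2 difference from wild type was 0.39 in the over-expression line (adjusted p = 0.324) and -0.03 in bes1-D (adjusted p = 0.982).

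Leaving aside GH3.1, whose difference was built into its selection, 3 of the other 7 tested members rose and 1 fell in the RAV1 over-expression line against wild type, where 23.0% of all loci were called, 15.0% higher and 8.01% lower. In bes1-D against wild type 1 of these 7 rose and none fell (GH3.17 was lower with an unadjusted p under 0.05 in limma), where 7.96% of all loci were called, 2.19% higher and 5.77% lower. Between the over-expression line and bes1-D 2 of the 7 were higher and 1 lower, where 38.5% of all loci were called, 28.0% higher and 10.6% lower. The median log2 difference of the 8 tested members, GH3.1 included, was 0.13, 0.07 and 0.10 in these 3 comparisons, and the median of all loci was 0.09, -0.06 and 0.19. In the direct comparison the median of all loci moved from 0.19 to 0.04 under trimmed-mean scaling; relative to the 0.19 the differences of GH3.3, GH3.5 and JAR1 were 1.50, 0.71 and -0.61.

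**Figure D4:**
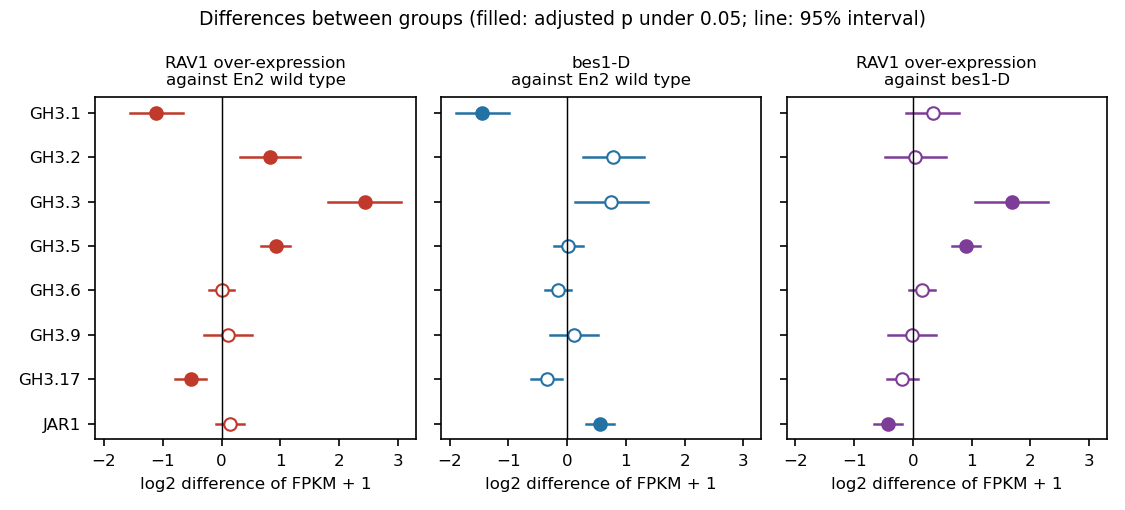
Difference in log2(FPKM + 1) of the 8 tested members in the 3 comparisons, with unadjusted 95% intervals; filled points passed the adjusted threshold, and the vertical line marks no difference. GH3.3 lies farthest to the right in both comparisons of the RAV1 over-expression line, and GH3.1 farthest to the left in both comparisons with wild type.

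The auxin members differ in how far their sequences can be told apart. Over the coding sequences of the TAIR10.1 annotation, GH3.2 and GH3.4 shared 90.0% of their bases, with a longest identical run of 65 bases, and GH3.5 and GH3.6 shared 84.1%, with a longest run of 42. The reads were 100 bases long, and the sources used here do not say how shared reads were assigned, so the GH3.2 level may hold reads of GH3.4 or lack its own. GH3.2 and GH3.3 shared 79.6%. JAR1 shared between 49.2% and 50.9% with the auxin members.

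Auxin response factors bind TGTC elements, and the B3 and AP2 domains of RAV1 are known to bind CACCTG and CAACA, which is why the 250 bases before the annotated start of 4 members are shown here: GH3.2, GH3.3 and GH3.5, called higher in the RAV1 over-expression line, and GH3.1, called lower. The stretches are from RefSeq TAIR10.1 on the strand of the gene, 5′ to 3′, at chr4:17579368-17579617 (plus strand) for GH3.2, chr2:9866563-9866812 (minus) for GH3.3, chr4:13653329-13653578 (plus) for GH3.5 and chr2:6453798-6454047 (minus) for GH3.1. GH3.17 was called lower too and is not shown, and GH3.1 had a difference built into its selection. Capitals mark TGTCNC and CAACA on either strand.
GH3.2: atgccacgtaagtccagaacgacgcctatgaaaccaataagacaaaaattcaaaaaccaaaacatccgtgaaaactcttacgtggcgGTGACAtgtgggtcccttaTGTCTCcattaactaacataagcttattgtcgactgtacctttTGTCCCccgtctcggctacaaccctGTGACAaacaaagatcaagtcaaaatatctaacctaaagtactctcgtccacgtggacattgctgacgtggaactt
GH3.3: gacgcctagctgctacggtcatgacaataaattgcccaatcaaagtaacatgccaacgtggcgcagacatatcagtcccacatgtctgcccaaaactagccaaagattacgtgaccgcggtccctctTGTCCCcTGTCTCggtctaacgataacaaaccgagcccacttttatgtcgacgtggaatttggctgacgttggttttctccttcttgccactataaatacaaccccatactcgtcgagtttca
GH3.5: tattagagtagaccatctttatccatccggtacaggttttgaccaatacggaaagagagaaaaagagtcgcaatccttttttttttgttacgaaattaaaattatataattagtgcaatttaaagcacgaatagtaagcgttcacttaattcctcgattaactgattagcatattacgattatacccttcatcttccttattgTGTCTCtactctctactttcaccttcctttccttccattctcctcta
GH3.1: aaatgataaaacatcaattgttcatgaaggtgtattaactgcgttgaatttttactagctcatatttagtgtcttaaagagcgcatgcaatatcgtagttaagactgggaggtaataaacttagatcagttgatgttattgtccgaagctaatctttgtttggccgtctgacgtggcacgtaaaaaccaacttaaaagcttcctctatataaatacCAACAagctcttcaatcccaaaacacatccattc
TGTCNC was found in 4 of the 10 members' stretches, GH3.2 with 4 matches, GH3.3 and GH3.9 with 2 each and GH3.5 with 1, and in 23.9% of the 27443 stretches of the same length. Its form TGTCTC, which lies within it, was found once each in GH3.2, GH3.3 and GH3.5, and in 10.9% of all stretches. In GH3.3 the matches begin at -123 and -116 from the start. CAACA was found in GH3.1, GH3.6, GH3.9 and GH3.17 and in 47.4% of all stretches. CACCTG was found in none of the 10, and in 2.6% of all stretches. Elements tied to BES1 were also searched: CANNTG, which overlaps CACCTG, was found in 8 of the 10 and in 55.3% of all, and CGTGNG in none of the 10 and in 12.5% of all. TGTCGG was found in none of the 10 and in 4.2% of all. These are matches of letters on both strands in a short window, not measured sites.

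Of 9 further loci annotated as GH3 family proteins, 8 were in the table and 5 were tested. AT5G13360 was the one called, in the over-expression line against wild type, where 23.0% of all loci were called. It had 12.9, 12.2 and 10.8 FPKM in wild type, 17.2, 15.5 and 19.3 FPKM in the RAV1 over-expression line and 14.6, 14.6 and 15.8 FPKM in bes1-D, with no overlap of either group with wild type. Its log2 change was 0.50 in the over-expression line (adjusted p = 0.00872). In bes1-D the difference of 0.31 did not pass (adjusted p = 0.11). AT4G03400 lay between 15.9 and 24.3 FPKM, AT5G13370 between 7.14 and 20.8 FPKM, and AT1G23160 and AT5G51470 between 0.76 and 2.50 FPKM, and these 4 passed in neither comparison with wild type. AT1G48670 did not pass the filter, at 1.37, 0.84 and 1.12 FPKM in wild type, 0.54, 0.46 and 0.58 FPKM in the over-expression line and 0.27, 0.31 and 0.52 FPKM in bes1-D. With no filter it was called lower in both comparisons, with log2 changes of -0.46 (adjusted p = 0.0315) and -0.62 (adjusted p = 0.0223). AT1G48660 reached at most 0.68 FPKM and AT5G13350 at most 0.21 FPKM. AT5G13350, AT5G13360 and AT5G13370 follow PBS3 on chromosome 5 of TAIR10.1.

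The genes around the auxin conjugation step were described next, from lists of named pathway genes. Of 8 tested auxin synthesis genes none rose in the RAV1 over-expression line, where 2 had an unadjusted p under 0.05 in limma (as did 37.4% of all loci), and 1 fell. It was TAR2, a tryptophan aminotransferase, with 17.1, 14.4 and 17.2 FPKM in wild type and 10.6, 12.0 and 8.85 FPKM in the line (log2 change -0.59, adjusted p = 0.00913). Of 10 tested auxin turnover genes 5 rose and 2 fell, where 15.0% of all loci rose and 8.01% fell. IAMT1, which methylates IAA, rose from 1.87, 1.77 and 3.83 FPKM to 13.1, 13.5 and 8.37 FPKM (log2 change 1.88, adjusted p = 0.000947). ILL6, an amidohydrolase of the family that releases hormones from amino acid conjugates, rose 2.18-fold (adjusted p = 0.00248). The other rises were ILR1, IAR3 and ILL2 of the same hydrolase family, with log2 changes of 0.45, 0.44 and 0.40, named after their values were seen. The falls were AT1G14120, annotated as an oxygenase (log2 change -0.78, adjusted p = 0.0116), and UGT74D1, an auxin glucosyltransferase (-0.60). The count of rises was 2 to 5 with 1 library left out, being 3 without wild-type or over-expression replicate 1 and 2 without wild-type replicate 2 or 3 or over-expression replicate 3, and 3 under trimmed-mean scaling or quantile normalization. The count of falls was 0 without wild-type replicate 2 and 1 without wild-type replicate 1 or over-expression replicate 2 or 3. Of 8 tested early auxin response genes none was called, and 2 had an unadjusted p under 0.05.

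In bes1-D, where 2.19% of all loci rose and 5.77% fell, 2 of the 8 auxin synthesis genes fell. TAA1, the aminotransferase that starts the main route to IAA, had 9.04, 11.0 and 11.4 FPKM against 17.5, 20.2 and 22.2 FPKM in wild type (log2 change -0.87, adjusted p = 0.00325). YUC3, a flavin monooxygenase of the next step, was lower at 1.85 against 3.09 FPKM (-0.52, adjusted p = 0.0358), a call lost with any wild-type or bes1-D library or over-expression replicate 1 left out, and under both scalings. The only turnover gene called was AT1G14120 (-0.94, adjusted p = 0.0122), and both of its calls were lost without wild-type replicate 2. SAUR15, a small auxin-induced RNA, was the only early response gene called. It had 14.6, 11.9 and 13.2 FPKM in bes1-D against 4.38, 7.80 and 2.28 FPKM in wild type (1.40, adjusted p = 0.0205), a call lost without wild-type replicate 1 or bes1-D replicate 1 or 3.

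Among the 11 jasmonate synthesis genes, all tested, 4 rose and none fell in the RAV1 over-expression line (6 had an unadjusted p under 0.05, and 1 fell under trimmed-mean scaling), beside 15.0% and 8.01% of all loci. LOX2, the plastid lipoxygenase that starts the pathway in leaves, had 866, 701 and 886 FPKM there, 267, 212 and 212 FPKM in wild type and 113, 126 and 75.7 FPKM in bes1-D. The 3 groups did not overlap: LOX2 rose in the over-expression line (log2 change 1.82, adjusted p = 0.000321) and fell in bes1-D (-1.15, adjusted p = 0.00648). AOC2, an allene oxide cyclase, rose 1.94-fold in the over-expression line (adjusted p = 0.00115) and LOX3, another lipoxygenase, 2.18-fold (adjusted p = 0.0073). The last was AOC1, a cyclase too, with a log2 change of 0.49. In bes1-D, beside 2.19% of all loci, 2 of the 11 rose, AOC2 (0.60, adjusted p = 0.0208) and AOC1 (0.61), and none did when a single wild-type library, or bes1-D replicate 2, was left out. The 3 that fell, beside 5.77% of all loci, were LOX2, AOC3 (-0.80, adjusted p = 0.00302) and OPCL1, a ligase of the later steps (-0.63). Of 5 tested jasmonate turnover genes none was called in the over-expression line (2 were under 0.05 unadjusted). In bes1-D AT5G05600, annotated as an oxygenase, fell (-1.14, adjusted p = 0.0345). That call was lost without wild-type replicate 1 or 2, bes1-D replicate 1 or 3, or the filter. The hydrolases ILL6, IAR3, ILR1 and ILL2, of the family that releases hormones from conjugates, were counted only under auxin turnover.

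Among the 6 salicylic acid synthesis genes 2 rose in the RAV1 over-expression line, beside 15.0% of all loci. SARD1, a transcription factor of salicylic acid signalling, had 9.96, 3.75 and 13.3 FPKM against 1.28, 1.07 and 1.22 FPKM in wild type (log2 change 2.05, adjusted p = 0.00266), with the replicate order of PBS3. EDS5, the transporter of isochorismate out of the plastid, had a change of 0.51 (adjusted p = 0.037), lost with either scaling and without wild-type replicate 2 or 3 or over-expression replicate 1 or 3. The isochorismate synthases ICS1 and ICS2, named after their values were seen, had differences of -0.16 and -0.12 there that did not pass (adjusted p = 0.416 and 0.598), and both were lower than in bes1-D (-0.42 and -0.57, adjusted p = 0.031 and 0.0161). Of 5 tested turnover genes DMR6, a salicylic acid hydroxylase, rose 2.81-fold (adjusted p = 0.00306). AT4G10500, on the same list and named after its values were seen, went the other way and was not called. It had 3.96, 1.34 and 1.47 FPKM in wild type and 0.87, 1.01 and 1.29 FPKM in the over-expression line. UGT74F2, a salicylic acid glucosyltransferase, fell from 137, 93.7 and 126 FPKM to 51.2, 54.5 and 58.9 FPKM (-1.09, adjusted p = 0.00179), and UGT76B1, another glucosyltransferase, fell by 0.46 (adjusted p = 0.0166), a call lost without wild-type replicate 1 or 3. In bes1-D no synthesis gene was called (2 had an unadjusted p under 0.05 in limma, as did 23.5% of all loci), and UGT76B1 was the turnover gene called (-0.66, adjusted p = 0.00836). The line's higher seed and lower photosynthesis markers stand beside all of these lists, and their part was not tested.

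The medians of these lists can be set beside the median of all loci, 0.09 in the over-expression line and -0.06 in bes1-D. In the over-expression line the median log2 difference was 0.05 for auxin synthesis, 0.28 for auxin turnover, 0.10 for early auxin response, 0.28 for jasmonate synthesis, 0.52 for jasmonate turnover, 0.36 for salicylic acid synthesis and -0.46 for its turnover. In bes1-D these medians were -0.13, -0.03, -0.08, -0.07, -0.24, 0.11 and 0.15 in the same order. The medians of the salicylic acid lists thus lay on opposite sides of 0 in the over-expression line.

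**Figure D5:**
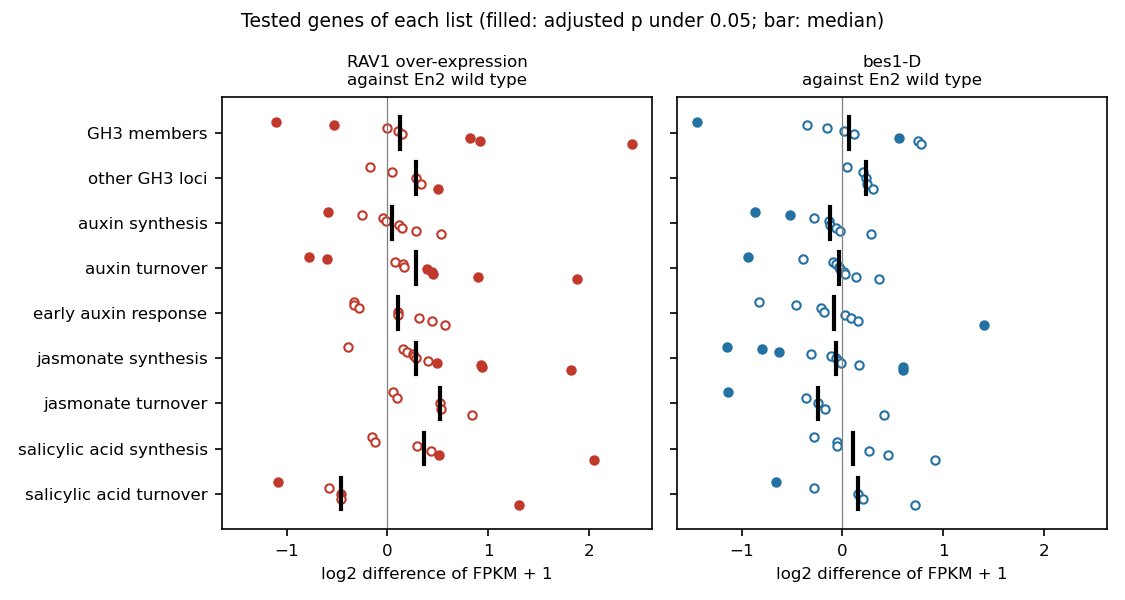
Differences from wild type in log2(FPKM + 1) for the tested GH3 members, other GH3 loci and genes of each pathway list, in the RAV1 over-expression line (left) and in bes1-D (right); each point is 1 gene, filled points passed the adjusted threshold, and the short black bar is the list's median. In the jasmonate synthesis list LOX2 lies at 1.82 in the over-expression line and at -1.15 in bes1-D.

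The loci with the pattern most like that of each called member were taken by Pearson correlation of log2(FPKM + 1) over the 9 libraries, among 14898 or 14899 other tested loci with a mean of at least 5 FPKM. The libraries fall into 3 genotypes, so these values mostly rank how alike the patterns over the groups are. They do not weigh the level of a gene or the size of its change. For GH3.3 they were IRT3 (r = 0.994), AT1G11210 (0.992) and AT4G05150 (0.987), and for GH3.5 OCT4 (0.993), AT1G68250 (0.993) and PAP85 (0.992). PAP85, a seed storage protein gene, averaged 42.2 FPKM in the over-expression line and 0.263 FPKM in wild type. AT1G68250 averaged 386 FPKM in the over-expression line, 0 FPKM in wild type and 0.347 FPKM in bes1-D. Both reached the mean of 5 FPKM only through the over-expression line, so their likeness to GH3.5 was partly built into their selection. For GH3.1 they were AT5G67510 (0.974), AT1G08580 (0.954) and emb2742 (0.954), and for GH3.2 AT4G16155 (0.936), AT3G61310 (0.917) and AT3G59350 (0.906). For GH3.17 they were GPRI1 (0.947), EIF4A-2 (0.943) and AT5G54145 (0.927); GPRI1, a transcription factor of chloroplast development also called GLK1, averaged 26.4 FPKM in wild type, 8.54 FPKM in the over-expression line and 14.2 FPKM in bes1-D. For JAR1 they were AT4G34560 (0.960), WIH2 (0.956) and AT5G44860 (0.954). Between members, GH3.3 and GH3.5 had r = 0.95 and GH3.3 and GH3.17 r = -0.74 over the same 9 libraries.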

How the data were processed

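Per the submitters' processing notes, the reads went through FastQC 0.10.1, TopHat2 against TAIR10, and Cufflinks 2.1.1. The authors deposited 1 table of FPKM values for 9 libraries and 25199 loci; scaling between libraries and strand use are not stated in the labels. Column sums ran from 890880 to 971271 FPKM, and 25135 loci matched RefSeq TAIR10.1, used for names, gene models and sequences. The log2(FPKM + 1) values were fitted in limma 3.58.1 (R 4.3.3) with group means over all 9 libraries and the trend and robust options, and adjusted by Benjamini-Hochberg over 19740 loci at 0.05, two-sided. The p-values weigh group differences against the spread between these libraries, moderated over loci by limma. They do not cover the spread between independent lines. Fits were checked on simulated data. Alternatives were a pseudocount of 0.1, other filters, trimmed-mean scaling (unweighted, computed directly), quantile normalization, other variance options, 6-library fits, a replicate block, and each library left out. Named genes were all members, other GH3 loci, up to 3 called genes per list and comparison by p, 3 nearest patterns per called member, RAV1 and BES1. The members and lists were chosen with earlier results of these data known.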

Additional observations from a re-analysis of the deposited data

How the results depend on the processing

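Of the members' values under the alternatives, 380 kept their direction and side of the threshold, 7 lost a call, 1 gained one and 16 changed sign. Those 16 were never called. This tally includes GH3.1 at the filter of 2 libraries, which was chosen after seeing the data. Fits in which GH3.1 failed the filter are not in it, and are not counted as lost calls. Under trimmed-mean scaling and quantile normalization 2 members, not 3, rose in the over-expression line, as GH3.2 was lost. Member counts were 2 to 3 rises and 1 to 2 falls in the RAV1 over-expression line, 0 to 2 rises and 0 to 1 falls in bes1-D, and 2 and 1 throughout in the direct comparison, with 1 library left out; falls drop because GH3.1 then fails the filter, as at 5 FPKM, where falls were 1 and 0. Without wild-type replicate 2 no member rose in bes1-D, and without wild-type replicate 3, 2 did. Calls over all loci ranged from 2644 to 5112, 616 to 1717 and 5161 to 7153. GH3.6 turned to -0.11 (quantile) and -0.098 (trimmed mean) against wild type and to -0.0081 and -0.0070 against bes1-D, and GH3.2 to -0.14 and -0.11 against bes1-D. Leaving out libraries, GH3.6 ranged from -0.041 to 0.025, GH3.9 from -0.020 to 0.28 and, in bes1-D, -0.013 to 0.29, GH3.5 in bes1-D from -0.022 to 0.047, and in the direct comparison GH3.2 from -0.15 to 0.21 and GH3.9 from -0.11 to 0.10. Both scalings moved the share of calls that were higher: in the over-expression line from 65.2% to 47.4% and 47.6% (trimmed mean and quantile), in bes1-D from 27.5% to 44.5% and 41.8%, and in the direct comparison from 72.6% to 46.7% and 47.9%. Replicate numbers were not shown to pair the libraries: same-numbered libraries had correlations of -0.076 to 0.151. A replicate block gave 4354, 1287 and 7208 calls over all loci and changed no member's call. The absolute depth is unknown, so no detection limit is given for PBS3 or GH3.1.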
